A study of Mus musculus with 12 samples.

Results

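The genes described here encode the proteasome: the subunits of the 20S core and of the 19S cap, the activators that can take the place of the cap, the factors that assemble both, and Nfe2l1 and Ddi2, a transcription factor of proteasome genes and the protease that activates it. Members were the protein-coding genes whose symbol in the GENCODE M21 annotation starts with Psma, Psmb, Psmc, Psmd, Psme or Psmg followed by a digit, together with Pomp, Nfe2l1 and Ddi2. This gave 50 of 38481 genes, of which 46 passed the filter on low counts, among 13247 genes tested. One of the 50, Psmc3ip, carries the symbol only: its product acts in meiotic recombination and is no proteasome subunit. The interferon-induced catalytic subunits other than Psmb10 were not analysed here.

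The libraries came from C2C12 cells, a mouse myoblast line that divides as single cells in serum-rich medium and can fuse into myotubes. Total RNA was sequenced in 4 groups of 3 libraries. They were cells given an siRNA against Crebl2 and then rapamycin, the same siRNA and then ethanol, an siRNA against Renilla luciferase (Luc) and then rapamycin, and the Luc siRNA and then ethanol. All 4 groups were grown in medium with serum, the siRNA was left for 3 days and rapamycin, an inhibitor of the mTORC1 kinase, was given at 20 nM for the last 12 h, with ethanol as its vehicle. Crebl2, a small leucine zipper protein related to the CREB family, was targeted with 1 siRNA sequence, so an effect of that sequence on other transcripts cannot be told apart from the loss of Crebl2. Nothing in the labels says whether the 3 libraries of a group came from separate cultures, and the p-values then reflect no more than how these libraries vary, which may be technical variation.

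The 26S proteasome degrades proteins tagged with ubiquitin. Its 20S core is a barrel of alpha rings, which form the gate, and beta rings, which hold the protease sites. The 19S cap binds the tagged protein, removes the ubiquitin and threads the chain into the core with a ring of ATPases. Genes of the core and the cap are known to rise together when the proteasome is inhibited, through the transcription factor encoded by Nfe2l1. mTORC1 activity has been tied to proteasome content in cultured mouse cells.

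Library totals ran from 33404087 to 42891015 counts, and no 2 libraries were identical. Levels are given as CPM, the read count scaled to library size with the TMM method. The targeted transcript, Crebl2, had 10.7, 8.97 and 9.49 CPM with the Crebl2 siRNA and rapamycin and 4.87, 7.41 and 6.02 CPM with the Crebl2 siRNA and ethanol, against 40.0, 36.4 and 36.3 CPM with the Luc siRNA and rapamycin and 23.8, 25.3 and 26.2 CPM with the Luc siRNA and ethanol. All 7 myoblast markers were measured in the 12 libraries. The 10 markers of other cell types summed to at most 1.11 CPM, with Ptprc, Adgre1 and Alb at 0. Some of these values are limited by the way reads were counted, described next.

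The way reads were counted bears on the members. Reads falling on several listed transcripts appear to be missing: all 18 member transcripts that share every exonic base with another one were at 0 in the 12 libraries, and so were 4 of the other 63. The share of a gene's exonic bases that belong to 1 listed transcript is called its countable share below. It was at least 90% for 32 of the 50 members and lower for 18. Mean levels ran from 2.92 to 593 CPM, with a median of 224 CPM, in the 30 tested members with at least 90% countable bases. In the 16 tested members below 90% they ran from 0.602 to 211 CPM, with a median of 7.28 CPM. Low values of Psmc3, Psmd4, Psmd8, Psmd10 and Psmg3, whose countable shares were between 8.03% and 31.4%, therefore do not show low expression. The same holds for the markers Ptprc (8.38% countable) and Adgre1 (3.52%), given at 0 above, and for Pecam1 (19.9%) and Cd68 (22.0%).

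The 4 members that did not pass the filter were Psma8, Psmb11, Psme2 and Nfe2l1. Psma8, an alpha subunit known from testis, had 0 counts in every library. Psmb11, a beta subunit known from the thymus, averaged 7.92 counts with all its bases countable. Psme2 averaged 6.75 counts with 20.0% of its bases countable. Nfe2l1 averaged 1.17 counts with 4.73% of its bases countable, so its transcript level was not measured here.

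Because the level of Nfe2l1 was not measured, the promoters of the members were searched for the element that its product is known to bind. RefSeq windows on GRCm38.p6, from 250 bases before to 50 bases after the start of a gene, matched 42 of the 50 members; the others were Psma8, Psmb1, Psmb2, Psmb7, Psmc3, Psmd3, Psmd7 and Psmg2. The core of the antioxidant response element, TGACNNNGC on either strand with N for any base, was in the windows of 6 of the 42 members (14.3%), against 14% of 27025 genes. TGACGTCA, the full cyclic AMP response element bound by CREB family proteins, was in 0 of 42 members, against 2.03% of all genes. The NF-Y box CCAAT was in 15 of 42 members (35.7%), against 41.1% of all genes. The first 2 elements share their first 4 letters, and CCAAT overlaps neither. The 6 members with the antioxidant response element core are shown so that the letters and their place can be read beside the values below. Each line gives up to 10 bases on either side of the match, 5′ to 3′ on the strand of the gene, with the match in capitals (on the opposite strand in Psmc6, Psmd12 and Psme4, where the capitals are the reverse complement).
Psmb5, chr14:54618024-54618052: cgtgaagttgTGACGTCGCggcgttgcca
Psmb6, chr11:70525338-70525366: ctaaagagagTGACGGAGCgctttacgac
Psmd9, chr5:123228149-123228177: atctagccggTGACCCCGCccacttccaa
Psmc6, chr14:45329587-45329615: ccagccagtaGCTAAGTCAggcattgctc
Psmd12, chr11:107479278-107479299: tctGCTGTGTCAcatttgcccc
Psme4, chr11:30771758-30771786: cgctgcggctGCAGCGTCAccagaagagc
Psmb5 and Psmb6 encode catalytic beta subunits, Psmc6 an ATPase, Psmd12 a non-ATPase subunit, Psmd9 an assembly factor and Psme4 an activator. Counted from the RefSeq start, the matches begin at -47 (Psmb5), -9 (Psmb6), -31 (Psmd9), -227 (Psmc6), -247 (Psmd12) and -7 (Psme4). The RefSeq start used for Psmd9 lies inside the span of the gene in GENCODE M21, chr5:123169413-123250131, and not at its start. A match in such a window is a description of letters and shows no binding, and the share among the members was close to that among all genes.

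Per countable kilobase, the unit in which levels can be set side by side between genes, most core and cap subunits with at least 90% countable bases stood above the assembly factors. With the Luc siRNA and ethanol, members with at least 90% countable bases had a median of 179 CPM per kilobase among alpha subunits, 244 among beta subunits, 194 among ATPases and 165 among non-ATPase subunits. Psma7 was the highest alpha subunit with 346 CPM per kilobase, and Psmb6 the highest beta subunit with 384. Psmb10, the interferon-induced form of the trypsin-like subunit, was the lowest tested beta subunit with 22.0 CPM per kilobase, below 3 of the assembly factors. The 3 factors of 20S assembly with at least 90% countable bases had 2.67 (Psmg1), 14.6 (Pomp) and 52.5 (Psmg2) CPM per kilobase. The 2 such factors of 19S assembly had 26.1 (Psmd9) and 33.6 (Psmd5). The value of Pomp is over 4558 countable bases of 3 listed transcripts, so it may be less comparable with genes of 1 transcript. Psme3 led the activators with 82.8 CPM per kilobase.

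With the Crebl2 siRNA in ethanol, most proteasome genes were higher than with the Luc siRNA. Of the 46 tested members, 29 rose and 3 fell, at a Benjamini-Hochberg adjusted p under 0.05 in the quasi-likelihood test of edgeR; among all 13247 tested genes 21.4% rose and 17% fell. The median log2 fold change was 0.24 over the members and 0.01 over all tested genes. The members are abundant, and abundant genes were called more often: of 24 members that averaged 100 CPM or more, 21 rose and 0 fell, against 38.7% and 16.7% of 2320 tested genes at that level. By role, 12 of 15 tested core subunits rose and 1 fell, 11 of 17 cap subunits rose and 0 fell, and 4 of 8 assembly factors rose and 0 fell. The rises called ran from 0.11 (Psmb1) to 0.54 (Psmg1) on the log2 scale.

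In rapamycin the same comparison of siRNAs, made in libraries that share none with the first, gave 24 members that rose and 2 that fell, against 16.3% and 16.8% of all tested genes. The median log2 fold change was 0.21 over the members and -0.01 over all tested genes. Among members of at least 100 CPM, 16 of 24 rose and 0 fell, against 30.9% and 19.1% of tested genes at that level. Core subunits rose in 10 of 15 cases, cap subunits in 9 of 17 and assembly factors in 3 of 8, and none of these fell. There were 20 members that rose with the Crebl2 siRNA in both media. How many of all tested genes did so was not counted.

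Rapamycin lowered most of the proteasome genes. With the Luc siRNA, 33 members fell and 1 rose, against 21.6% and 19.5% of all tested genes. The median log2 fold change was -0.30 over the members and 0.02 over all tested genes. With the Crebl2 siRNA, 34 fell and 2 rose, against 25.6% and 19.7% of all tested genes, and the medians were -0.33 over the members and -0.01 over all tested genes. Of the 24 members of at least 100 CPM, 22 fell with the Luc siRNA and 23 with the Crebl2 siRNA and none rose, against 32.5% and 39.2% of the tested genes at that level that fell. These 2 comparisons share no library, and 31 members fell in both. The share of all tested genes that fell in both was not counted, so the 31 have no background beside them. The siRNA comparison in ethanol and the rapamycin comparison with the Luc siRNA share the Luc ethanol libraries; their values for each member stand side by side in the plot of changes by role.

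**Figure D1:**
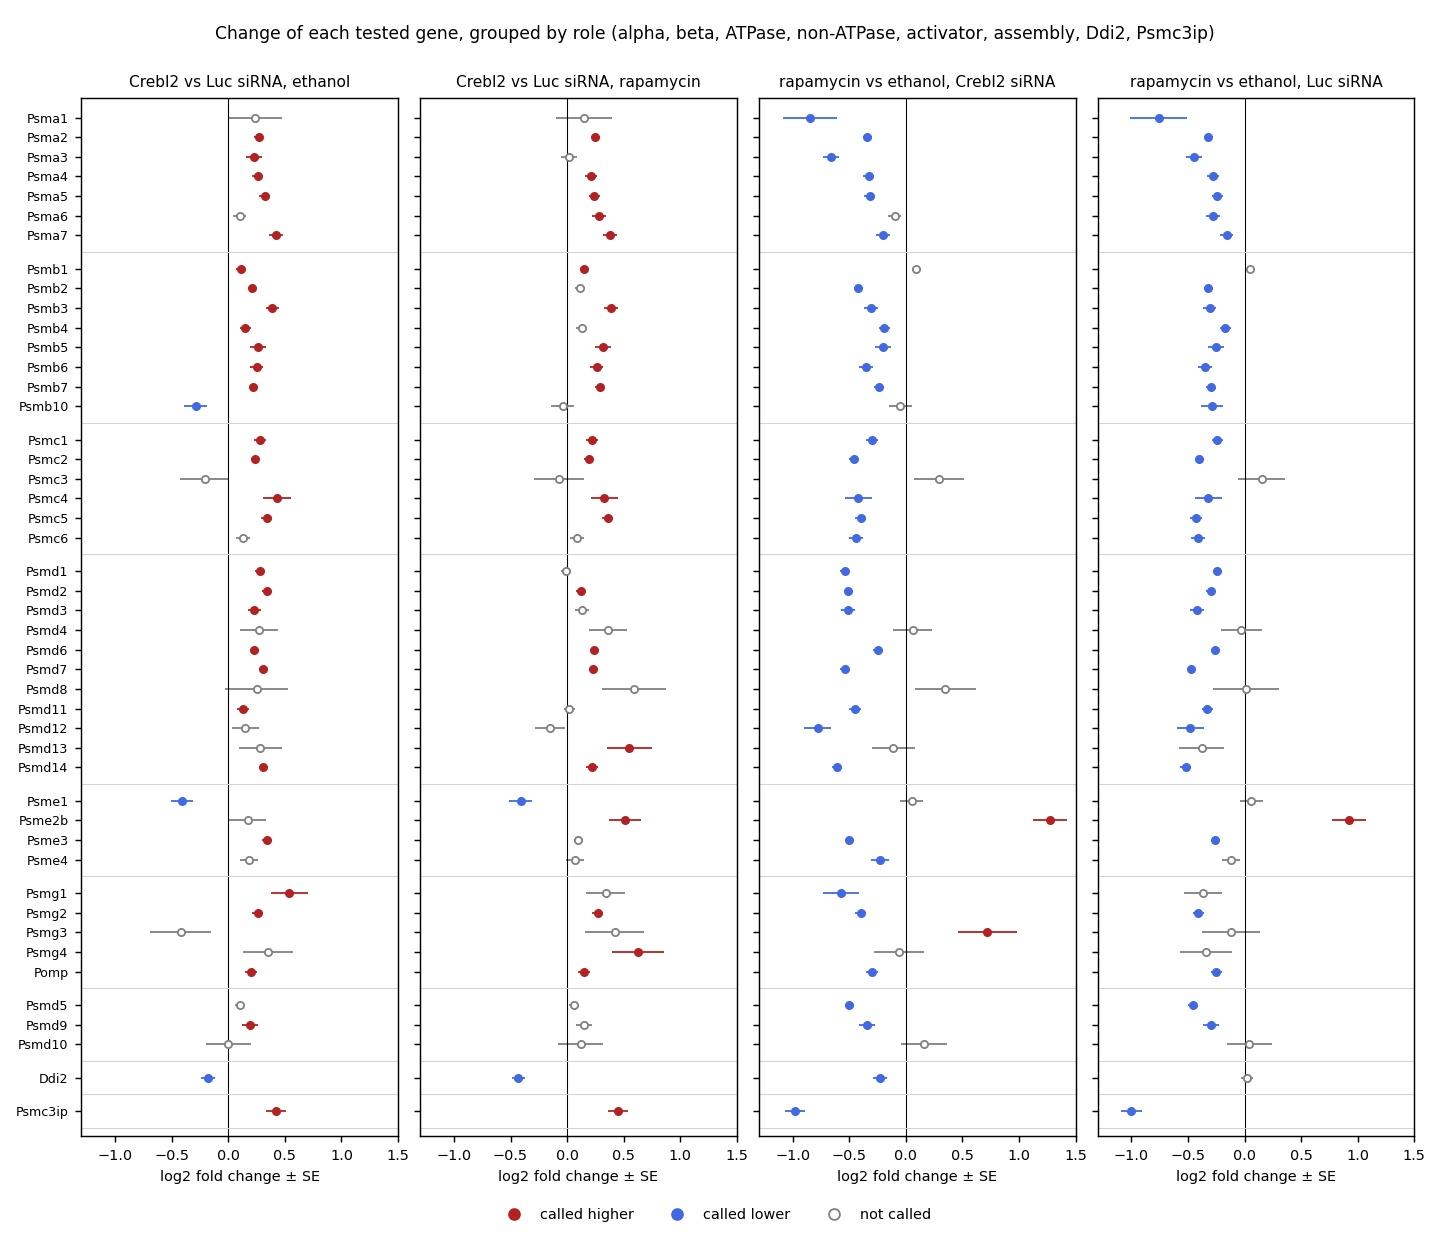
Log2 fold change (x axis) with its standard error for each of the 46 tested genes (rows, grouped by role), in 4 comparisons (panels), with filled points for called genes. Core and cap subunits lie mostly right of 0 in the siRNA panels, with medians of 0.24 and 0.21 over all 46, and left of 0 in the rapamycin panels, with medians of -0.33 with the Crebl2 siRNA and -0.30 with the Luc siRNA.

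These are bulk libraries, in which a change in the make-up of the cells and a change of RNA per cell cannot be told apart. Markers of muscle differentiation moved with the same groups. The 10 listed markers summed to 59.3 to 71.2 CPM with the Crebl2 siRNA and rapamycin, 81.2 to 96.1 CPM with the Crebl2 siRNA and ethanol, 221 to 265 CPM with the Luc siRNA and rapamycin and 557 to 733 CPM with the Luc siRNA and ethanol. Low values of Myh3, Tnnt2, Mylpf and Mymk, with 1.21% to 28.5% of their bases countable, do not show low expression. Of the 8 tested markers of this list, 8 fell with the Crebl2 siRNA in ethanol and 7 in rapamycin. With rapamycin, 6 fell under the Crebl2 siRNA and 8 under the Luc siRNA. The shares of all tested genes that fell were 17%, 16.8%, 25.6% and 21.6%, in that order. The list of differentiation markers was thus lower in both kinds of comparison. The 7 myoblast markers summed to 4202 to 4411 CPM with the Crebl2 siRNA and rapamycin, 4094 to 4573 CPM with the Crebl2 siRNA and ethanol, 3606 to 3923 CPM with the Luc siRNA and rapamycin and 4313 to 4616 CPM with the Luc siRNA and ethanol. The Luc rapamycin libraries thus lay below all others, and single markers moved opposite ways: with rapamycin and the Luc siRNA, Cdh15 and Itga7, an adhesion protein and an integrin subunit of muscle cells, fell by 0.80 and 0.81, while Vim, the intermediate filament vimentin (19% countable), rose by 0.83. The part of either list in the proteasome values was not tested.

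**Figure D2:**
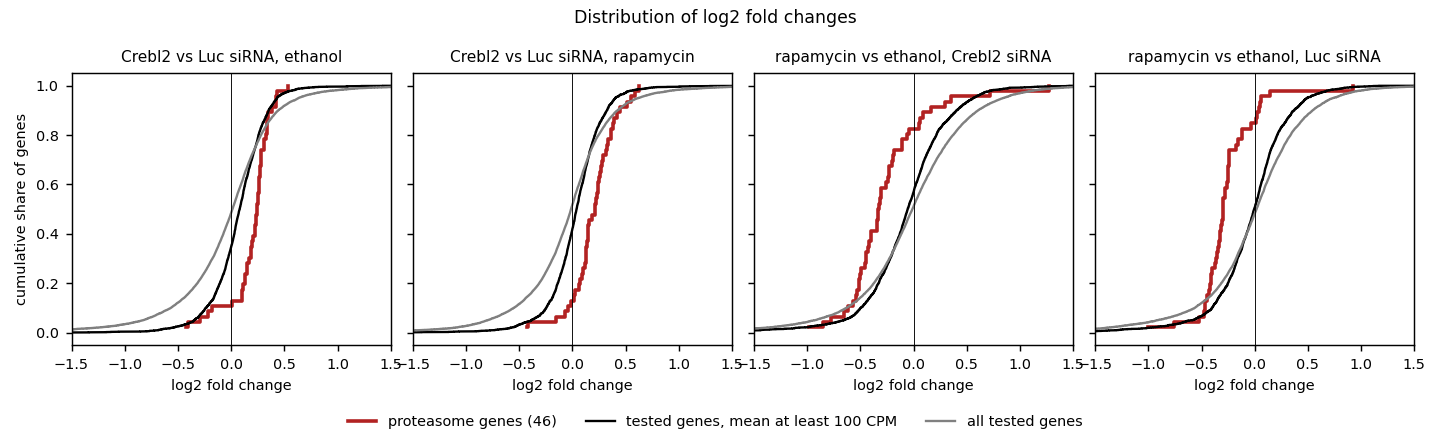
Cumulative share of genes (y axis) against log2 fold change (x axis) for the 46 tested proteasome genes, for tested genes that average 100 CPM or more and for all tested genes, in the 4 comparisons. At its middle the proteasome curve lies right of both others in the siRNA panels, with medians of 0.24 and 0.21, and left of both in the rapamycin panels, with medians of -0.33 and -0.30, while the curves cross in the tails.

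Among the alpha subunits, which form the outer rings and the gate of the core, 5 of 7 rose with the Crebl2 siRNA in ethanol and 5 in rapamycin, and rapamycin lowered 6 with the Crebl2 siRNA and 7 with the Luc siRNA. Of all tested genes, 21.4% rose with the Crebl2 siRNA in ethanol and 16.3% in rapamycin. Rapamycin lowered 25.6% of them with the Crebl2 siRNA and 21.6% with the Luc siRNA. For tested genes of at least 100 CPM these shares were 38.7%, 30.9%, 39.2% and 32.5%, in that order. Psma7 (chr2:180036374-180042433) had 349, 397 and 357 CPM with the Crebl2 siRNA and rapamycin and 433, 395 and 440 CPM with the Crebl2 siRNA and ethanol. Psma7 with the Luc siRNA had 277, 298 and 274 CPM in rapamycin and 322, 311 and 315 CPM in ethanol. Its Crebl2 siRNA libraries lay above the Luc siRNA libraries in both media with no overlap, a rise of 0.42 (SE 0.06, edgeR adjusted p = 3.2e-05) on the log2 scale in ethanol and of 0.38 (SE 0.06, adjusted p = 0.0001) in rapamycin. Its fall with rapamycin was smaller. It was 0.20 under the Crebl2 siRNA (SE 0.06, edgeR adjusted p = 0.0081), where the libraries overlapped, and 0.16 under the Luc siRNA (SE 0.06, adjusted p = 0.034). The first of these calls ended without Crebl2 rapamycin replicate 1 or 3, at a log2 fold change of -0.15 to -0.13. The second ended without any of the 3 Luc ethanol libraries or without Luc rapamycin replicate 1 or 3, at -0.17 to -0.15.

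Psma2 had 223, 237 and 222 CPM with the Crebl2 siRNA and rapamycin and 283, 290 and 291 CPM with the Crebl2 siRNA and ethanol. Psma2 with the Luc siRNA had 197, 192 and 184 CPM in rapamycin and 243, 231 and 240 CPM in ethanol. No groups overlapped in any of the 4 comparisons: it rose by 0.27 in ethanol and 0.25 in rapamycin with the Crebl2 siRNA (SE 0.04 each, edgeR adjusted p = 0.00014 and 0.0004) and fell by 0.34 and 0.32 with rapamycin (SE 0.04 each, adjusted p = 9.5e-06 with the Crebl2 siRNA and 2.6e-05 with the Luc siRNA). Psma5 had 203, 214 and 190 CPM with the Crebl2 siRNA and rapamycin and 251, 248 and 260 CPM with the Crebl2 siRNA and ethanol. Psma5 with the Luc siRNA had 177, 170 and 167 CPM in rapamycin and 203, 201 and 203 CPM in ethanol. It rose by 0.32 and 0.24 with the Crebl2 siRNA in ethanol and rapamycin and fell by 0.32 and 0.24 with rapamycin, with the Crebl2 siRNA and the Luc siRNA. Psma3, with 69.8% of its bases countable, had 12.9, 13.0 and 12.4 CPM with the Crebl2 siRNA and rapamycin and 21.1, 19 and 20.2 CPM with the Crebl2 siRNA and ethanol. Psma3 with the Luc siRNA had 13.3, 11.8 and 12.7 CPM in rapamycin and 17.3, 17.7 and 16.5 CPM in ethanol. Its rapamycin libraries overlapped between the siRNAs (log2 fold change 0.02, edgeR adjusted p = 0.85), and in ethanol it rose by 0.23 (SE 0.07, adjusted p = 0.015), a call that ended without Luc ethanol replicate 3 or Crebl2 ethanol replicate 1 (0.19 to 0.20). Rapamycin lowered it by 0.66 with the Crebl2 siRNA and by 0.45 with the Luc siRNA.

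The beta subunits, which include the protease sites, rose in 7 of 8 cases with the Crebl2 siRNA in ethanol and in 5 of 8 in rapamycin, and fell with rapamycin in 6 of 8 cases with the Crebl2 siRNA and in 7 of 8 with the Luc siRNA. The shares of all tested genes were 21.4%, 16.3%, 25.6% and 21.6%, in that order. Psmb3, a structural subunit, had 210, 236 and 217 CPM with the Crebl2 siRNA and rapamycin and 276, 253 and 293 CPM with the Crebl2 siRNA and ethanol. Psmb3 with the Luc siRNA had 164, 177 and 166 CPM in rapamycin and 216, 206 and 207 CPM in ethanol. It rose by 0.39 with the Crebl2 siRNA in both media (SE 0.06 each, edgeR adjusted p = 8.5e-05 in ethanol and 0.00011 in rapamycin) and fell by 0.31 with rapamycin under both siRNAs (SE 0.06 each, adjusted p = 0.00037 with the Crebl2 siRNA and 0.00046 with the Luc siRNA). The 4 groups of Psmb3 thus stood in the order Crebl2 ethanol, Crebl2 rapamycin, Luc ethanol and Luc rapamycin, where the middle 2 overlapped.

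Psmb6, the caspase-like catalytic subunit and one of the promoters printed above, had 272, 311 and 277 CPM with the Crebl2 siRNA and rapamycin and 362, 349 and 382 CPM with the Crebl2 siRNA and ethanol. Psmb6 with the Luc siRNA had 230, 254 and 234 CPM in rapamycin and 331, 287 and 301 CPM in ethanol. It rose by 0.25 in ethanol and 0.26 in rapamycin with the Crebl2 siRNA and fell by 0.35 with rapamycin under both siRNAs, with no overlap in any of the 4. Psmb7, the trypsin-like catalytic subunit, had 144, 151 and 145 CPM with the Crebl2 siRNA and rapamycin and 172, 169 and 176 CPM with the Crebl2 siRNA and ethanol. Psmb7 with the Luc siRNA had 115, 124 and 121 CPM in rapamycin and 147, 155 and 142 CPM in ethanol. Its log2 changes were 0.22 and 0.29 with the Crebl2 siRNA in ethanol and rapamycin and -0.24 and -0.30 with rapamycin, with the Crebl2 siRNA and the Luc siRNA, and all 4 were called. Only 65.1% of its bases are free of listed transcripts on both strands, and the strand setting of the counting was not given in the sources used here, so its values are uncertain. Psmb2 had 177, 183 and 181 CPM with the Crebl2 siRNA and rapamycin and 246, 227 and 250 CPM with the Crebl2 siRNA and ethanol. Psmb2 with the Luc siRNA had 164, 171 and 165 CPM in rapamycin and 213, 205 and 208 CPM in ethanol. It fell by 0.42 and 0.32 with rapamycin, with the Crebl2 siRNA and the Luc siRNA, and rose by 0.21 with the Crebl2 siRNA in ethanol, while its value in rapamycin, 0.11, was not called (edgeR adjusted p = 0.057). That value was called under 10 alternative settings, RLE scaling and DESeq2 among them (0.11 to 0.16, adjusted p 0.011 to 0.049).

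Psmb1 and Psmb10 differed from the other beta subunits and are named after their values were seen. Psmb1, a structural subunit, had 483, 508 and 485 CPM with the Crebl2 siRNA and rapamycin and 453, 468 and 470 CPM with the Crebl2 siRNA and ethanol. Psmb1 with the Luc siRNA had 443, 446 and 440 CPM in rapamycin and 432, 427 and 426 CPM in ethanol. Its rapamycin libraries lay above the ethanol libraries under both siRNAs with no overlap, by 0.09 (SE 0.04, edgeR adjusted p = 0.083) with the Crebl2 siRNA and 0.05 (SE 0.04, adjusted p = 0.34) with the Luc siRNA, neither of them called. The first was called under 9 alternative settings (0.10 to 0.13, edgeR or DESeq2 adjusted p 0.019 to 0.042). It was the one tested core subunit with a positive value under rapamycin. With the Crebl2 siRNA it rose by 0.15 in rapamycin (edgeR adjusted p = 0.0066) and by 0.11 in ethanol (adjusted p = 0.028), the second a call that ended without any single library but Crebl2 ethanol replicate 1 (0.09 to 0.12). Psmb10 had 20.8, 26.5 and 21.1 CPM with the Crebl2 siRNA and rapamycin and 23.6, 21.8 and 25.3 CPM with the Crebl2 siRNA and ethanol. Psmb10 with the Luc siRNA had 21, 24.5 and 24.9 CPM in rapamycin and 31.8, 28.2 and 26.5 CPM in ethanol. The 2 highest of the 12 values were Luc ethanol libraries. Its fall by 0.29 with the Crebl2 siRNA in ethanol (SE 0.10, edgeR adjusted p = 0.031) ended without replicate 1 or 2 of Luc ethanol or of Crebl2 ethanol (-0.30 to -0.21). Its fall by 0.29 with rapamycin and the Luc siRNA (SE 0.10, edgeR adjusted p = 0.026) ended without replicate 1 of Luc ethanol or of Luc rapamycin (-0.25 to -0.22).

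The ATPases of the cap unfold the substrate. Of 6 tested, 4 rose with the Crebl2 siRNA in ethanol and 4 in rapamycin, and 5 fell with rapamycin under each siRNA. Among all tested genes 21.4% rose in ethanol and 16.3% in rapamycin. With rapamycin 25.6% fell under the Crebl2 siRNA and 21.6% under the Luc siRNA. Psmc5 had 249, 270 and 259 CPM with the Crebl2 siRNA and rapamycin and 340, 334 and 354 CPM with the Crebl2 siRNA and ethanol. Psmc5 with the Luc siRNA had 199, 211 and 194 CPM in rapamycin and 270, 270 and 273 CPM in ethanol. It rose by 0.34 in ethanol and 0.36 in rapamycin with the Crebl2 siRNA (SE 0.05 each, edgeR adjusted p = 3.1e-05 and 1.9e-05) and fell by 0.40 and 0.43 with rapamycin (SE 0.05 each, adjusted p = 2.5e-06 with the Crebl2 siRNA and 1.7e-06 with the Luc siRNA). Its levels with the Crebl2 siRNA and rapamycin reached but did not pass those with the Luc siRNA and ethanol.

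Psmc2 had 275, 292 and 273 CPM with the Crebl2 siRNA and rapamycin and 376, 387 and 389 CPM with the Crebl2 siRNA and ethanol. Psmc2 with the Luc siRNA had 246, 247 and 243 CPM in rapamycin and 330, 320 and 323 CPM in ethanol. Every pair of groups was separate, with a rise of 0.24 in ethanol and 0.19 in rapamycin with the Crebl2 siRNA and a fall of 0.46 and 0.40 with rapamycin, with the Crebl2 siRNA and the Luc siRNA. Psmc1 had 313, 338 and 317 CPM with the Crebl2 siRNA and rapamycin and 399, 391 and 405 CPM with the Crebl2 siRNA and ethanol. Psmc1 with the Luc siRNA had 284, 281 and 269 CPM in rapamycin and 340, 315 and 333 CPM in ethanol. It rose by 0.28 and 0.22 with the Crebl2 siRNA in ethanol and rapamycin and fell by 0.30 and 0.24 with rapamycin, with the Crebl2 siRNA and the Luc siRNA. Of the other ATPases, Psmc6 fell by 0.44 and 0.41 with rapamycin, with the Crebl2 siRNA and the Luc siRNA, and its siRNA values of 0.13 and 0.09 were not called. Psmc3 (22.2% countable) was not called in any comparison.

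Non-ATPase subunits form the lid and part of the base of the cap. Of 11 tested, 7 rose with the Crebl2 siRNA in ethanol and 5 in rapamycin, and 8 fell with rapamycin under each siRNA. Among all tested genes 21.4% rose in ethanol and 16.3% in rapamycin. With rapamycin 25.6% fell under the Crebl2 siRNA and 21.6% under the Luc siRNA. Psmd14 (chr2:61711694-61800376), the deubiquitinase that takes the ubiquitin chain off the substrate, had 163, 167 and 159 CPM with the Crebl2 siRNA and rapamycin and 239, 260 and 248 CPM with the Crebl2 siRNA and ethanol. Psmd14 with the Luc siRNA had 143, 136 and 141 CPM in rapamycin and 193, 205 and 205 CPM in ethanol. Rapamycin lowered it by 0.61 (SE 0.04, edgeR adjusted p = 2.3e-08) with the Crebl2 siRNA, which is 1.53-fold, and by 0.52 (SE 0.05, adjusted p = 2e-07) with the Luc siRNA, which is 1.43-fold. It rose with the Crebl2 siRNA by 0.31 in ethanol (SE 0.04, edgeR adjusted p = 6.2e-05) and by 0.22 in rapamycin (SE 0.05, adjusted p = 0.0016).

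Psmd7, the partner of Psmd14 in the cap, had 254, 267 and 253 CPM with the Crebl2 siRNA and rapamycin and 370, 371 and 387 CPM with the Crebl2 siRNA and ethanol. Psmd7 with the Luc siRNA had 225, 222 and 211 CPM in rapamycin and 305, 294 and 311 CPM in ethanol. Its fall with rapamycin was 0.54 with the Crebl2 siRNA and 0.47 with the Luc siRNA, and its rise with the Crebl2 siRNA 0.31 in ethanol and 0.23 in rapamycin, with no overlap between groups. Psmd6, a lid subunit, had 213, 220 and 213 CPM with the Crebl2 siRNA and rapamycin and 244, 270 and 257 CPM with the Crebl2 siRNA and ethanol. Psmd6 with the Luc siRNA had 183, 179 and 186 CPM in rapamycin and 217, 219 and 220 CPM in ethanol. It rose by 0.23 and 0.24 with the Crebl2 siRNA in ethanol and rapamycin and fell by 0.25 and 0.26 with rapamycin, with the Crebl2 siRNA and the Luc siRNA.

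Psmd1 and Psmd2 encode the large scaffold subunits of the base. Psmd2 had 520, 534 and 536 CPM with the Crebl2 siRNA and rapamycin and 773, 726 and 768 CPM with the Crebl2 siRNA and ethanol. Psmd2 with the Luc siRNA had 488, 492 and 480 CPM in rapamycin and 582, 597 and 616 CPM in ethanol. It rose by 0.34 with the Crebl2 siRNA in ethanol (SE 0.04, edgeR adjusted p = 1.2e-05) and by 0.12 in rapamycin (SE 0.04, adjusted p = 0.029), and fell with rapamycin by 0.51 with the Crebl2 siRNA and by 0.30 with the Luc siRNA. Psmd1 (chr1:86064387-86139151) had 330, 332 and 321 CPM with the Crebl2 siRNA and rapamycin and 474, 487 and 464 CPM with the Crebl2 siRNA and ethanol. Psmd1 with the Luc siRNA had 336, 324 and 334 CPM in rapamycin and 377, 397 and 403 CPM in ethanol. In ethanol the Crebl2 siRNA libraries were all higher, by 0.28 (SE 0.04, edgeR adjusted p = 8.4e-05), while in rapamycin the groups overlapped at -0.01 (SE 0.04, adjusted p = 0.82). Rapamycin lowered Psmd1 by 0.54 under the Crebl2 siRNA (SE 0.04, edgeR adjusted p = 4.2e-08) and by 0.24 with the Luc siRNA (SE 0.04, adjusted p = 0.00018).

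**Figure D3:**
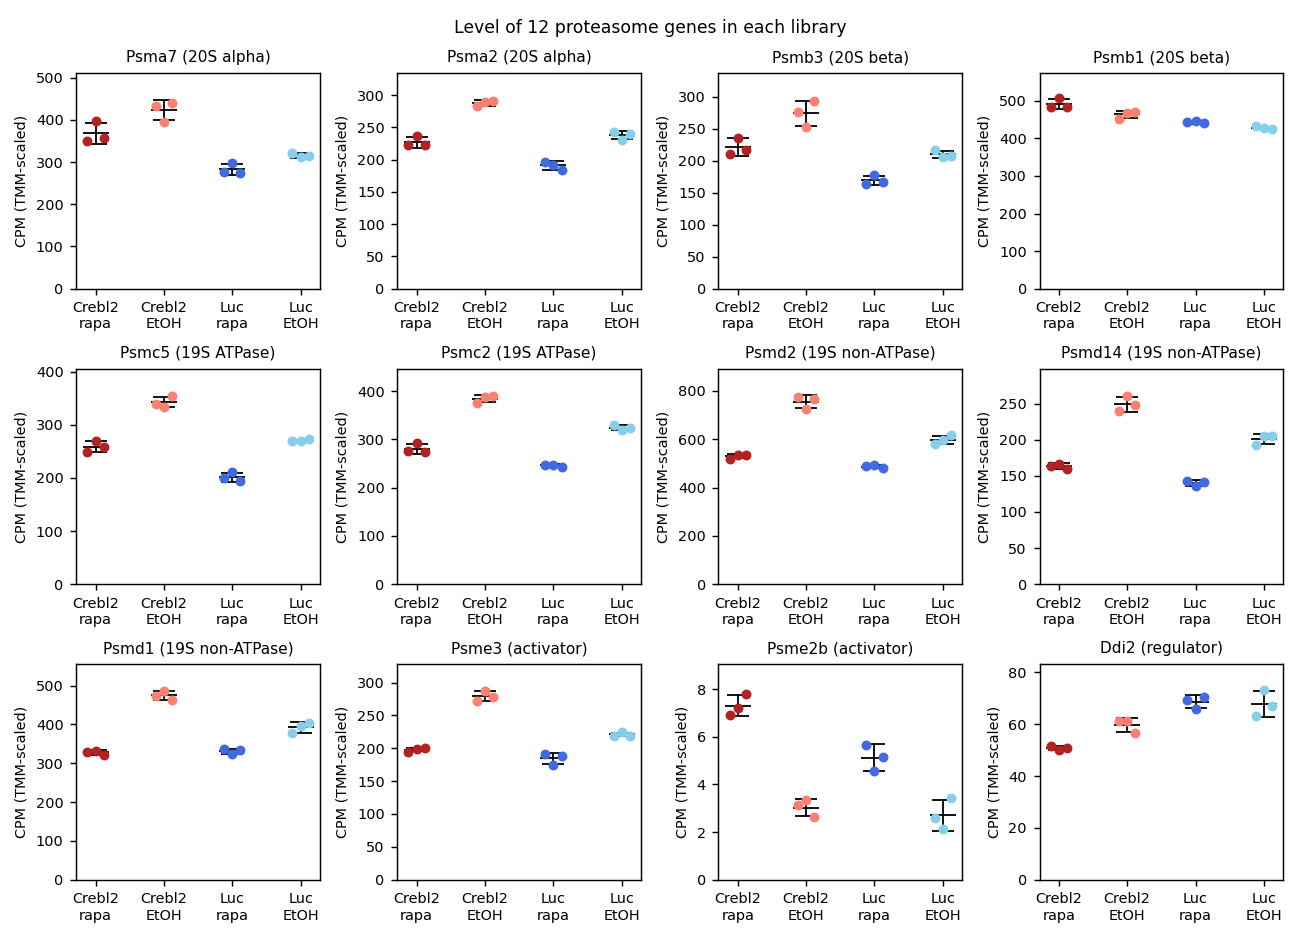
Level (CPM, y axis from 0) of 12 members in each library (points) with the mean and SD of 3 libraries (bars), for the 4 groups along the x axis. Psmd14 has its 3 highest values, 239 to 260 CPM, with the Crebl2 siRNA and ethanol, Psmd1 is alike in both rapamycin groups (321 to 336 CPM), and Psme2b is highest with rapamycin.

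Whether the response to rapamycin differed between the siRNAs was tested as the interaction, the rapamycin change under the Crebl2 siRNA less the change under the Luc siRNA. Of the 46 tested members 1, Psmd1, was called, a share to set beside the 1.2% of all tested genes called in either direction, and 5 of the 46 had an unadjusted p under 0.05, as had 1892 of the 13247 tested genes, a larger share. For Psmd1 the rapamycin change was 0.29 lower with the Crebl2 siRNA on the log2 scale (interaction -0.29, SE 0.06, edgeR adjusted p = 0.024). The call ended when any of 8 of the 12 libraries was left out, namely any of the 3 Crebl2 rapamycin or the 3 Luc rapamycin libraries, Crebl2 ethanol replicate 1 or Luc ethanol replicate 1, with values of -0.29 to -0.22 and adjusted p of 0.05 to 0.24. Psmd2 (-0.21, SE 0.06, edgeR adjusted p = 0.087) and Psme3 (-0.24, SE 0.06, adjusted p = 0.067) were not called. The median interaction was -0.04 over the members and -0.03 over all tested genes.

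The summed level of the core and of the cap sets the 4 groups side by side. The 13 core genes used include Psma8, with 0 counts, and Psmb11, at 0.213 CPM on average. Psmb1, the one tested core subunit with positive values under rapamycin, is the largest term of the core sum, at 457 CPM on average. Over the 13 core genes with at least 90% countable bases, the sum was 2669, 2898 and 2694 CPM with the Crebl2 siRNA and rapamycin, 3208, 3132 and 3322 CPM with the Crebl2 siRNA and ethanol, 2328, 2410 and 2312 CPM with the Luc siRNA and rapamycin and 2783, 2677 and 2682 CPM with the Luc siRNA and ethanol. The group means were 101%, 119%, 86.6% and 100% of the Luc ethanol mean, in that order, and the Crebl2 rapamycin libraries overlapped the Luc ethanol libraries. Over the 10 such cap genes the sum was 2831, 2967 and 2834 CPM with the Crebl2 siRNA and rapamycin, 3939, 3959 and 4004 CPM with the Crebl2 siRNA and ethanol, 2588, 2579 and 2531 CPM with the Luc siRNA and rapamycin and 3267, 3254 and 3315 CPM with the Luc siRNA and ethanol. These means were 87.8%, 121%, 78.3% and 100% of the Luc ethanol mean, and here all 4 groups were separate, with Crebl2 rapamycin below Luc ethanol. Medians per gene were taken over another set, all 15 tested core and 17 tested cap subunits, whatever their countable share. The median rapamycin change was -0.31 for the core and -0.44 for the cap with the Crebl2 siRNA. It was -0.29 for the core and -0.33 for the cap with the Luc siRNA. The difference between core and cap was not tested.

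**Figure D4:**
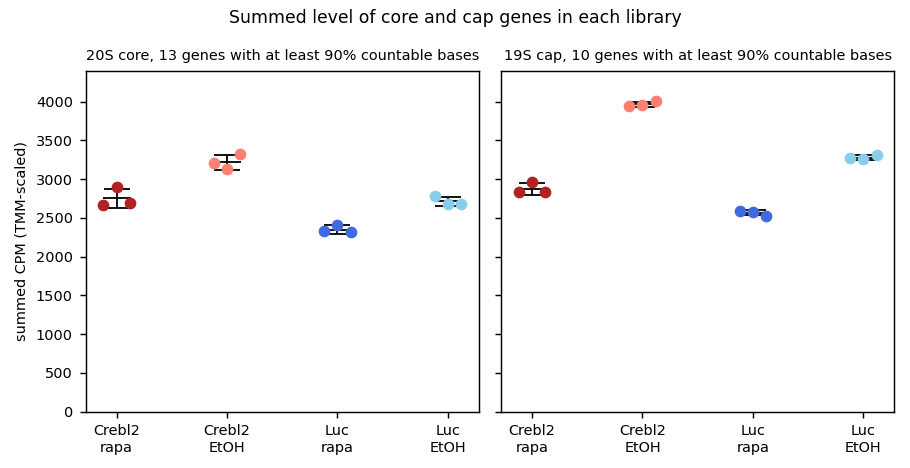
Summed level (CPM, y axis from 0) of 13 core genes (left) and 10 cap genes (right) with at least 90% countable bases in each library (points), with the mean and SD of 3 libraries (bars), by group along the x axis. The core sum with the Crebl2 siRNA and rapamycin is at 101% of the Luc ethanol mean, and the cap sum at 87.8%.

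Of the factors that assemble the core, Pomp, which matures the beta ring, had 59.3, 65.3 and 60.9 CPM with the Crebl2 siRNA and rapamycin and 73.9, 77.4 and 77.2 CPM with the Crebl2 siRNA and ethanol. Pomp with the Luc siRNA had 55.2, 55.1 and 57.0 CPM in rapamycin and 67.1, 65.5 and 66.5 CPM in ethanol. It rose by 0.20 and 0.15 with the Crebl2 siRNA in ethanol and rapamycin (SE 0.05 each, edgeR adjusted p = 0.0026 and 0.021) and fell by 0.30 and 0.25 with rapamycin (SE 0.05 each, adjusted p = 5.2e-05 with the Crebl2 siRNA and 0.00035 with the Luc siRNA). Psmg2, an alpha ring chaperone, had 50, 52.3 and 48.6 CPM with the Crebl2 siRNA and rapamycin and 62.3, 70.9 and 66.5 CPM with the Crebl2 siRNA and ethanol. Psmg2 with the Luc siRNA had 41.3, 42.0 and 42.2 CPM in rapamycin and 54.8, 56.8 and 55.2 CPM in ethanol. It rose by 0.26 and 0.27 with the Crebl2 siRNA in ethanol and rapamycin and fell by 0.40 and 0.41 with rapamycin, with the Crebl2 siRNA and the Luc siRNA, and no groups overlapped. Both genes were called in the direction of most subunits in all 4 comparisons.

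The other 3 tested factors of 20S assembly, Psmg1, Psmg3 and Psmg4, had fewer calls. Psmg1, at 2.92 CPM on average, rose by 0.54 with the Crebl2 siRNA in ethanol and fell by 0.57 with rapamycin and the Crebl2 siRNA. Its rise lost its call without Luc ethanol replicate 1 or Crebl2 ethanol replicate 2 (0.39 to 0.47). Psmg4, at 1.41 CPM on average with 14.6% of its bases countable, rose by 0.63 with the Crebl2 siRNA in rapamycin (edgeR adjusted p = 0.049). That call ended without any 1 of 7 libraries (0.41 to 0.63) and with DESeq2 (adjusted p = 0.057). Psmg3 is described with Psme2b. There were 3 chaperones of 19S assembly. Psmd5 had 116, 113 and 107 CPM with the Crebl2 siRNA and rapamycin and 153, 165 and 157 CPM with the Crebl2 siRNA and ethanol. Psmd5 with the Luc siRNA had 106, 106 and 109 CPM in rapamycin and 151, 148 and 143 CPM in ethanol. Rapamycin lowered it by 0.50 with the Crebl2 siRNA and by 0.46 with the Luc siRNA (SE 0.04 each, edgeR adjusted p = 1.9e-07 and 6.2e-07), while its siRNA values of 0.10 in ethanol and 0.06 in rapamycin were not called (adjusted p = 0.086 and 0.31). Psmd9 had 58.0, 64.4 and 61.1 CPM with the Crebl2 siRNA and rapamycin and 78.9, 71.8 and 80.5 CPM with the Crebl2 siRNA and ethanol. Psmd9 with the Luc siRNA had 53.7, 59.8 and 51.5 CPM in rapamycin and 73.7, 62.5 and 67.1 CPM in ethanol. It fell by 0.34 and 0.30 with rapamycin, with the Crebl2 siRNA and the Luc siRNA. Its rise of 0.19 with the Crebl2 siRNA in ethanol (SE 0.07, edgeR adjusted p = 0.047), where the groups overlapped, ended without any single library but Crebl2 ethanol replicate 2 or Luc ethanol replicate 1 (0.13 to 0.18). Psmd10, with 8.03% of its bases countable, was not called in any comparison.

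The activators did not move as one. Psme3, which encodes the nuclear 11S activator, had 195, 199 and 200 CPM with the Crebl2 siRNA and rapamycin and 272, 287 and 278 CPM with the Crebl2 siRNA and ethanol. Psme3 with the Luc siRNA had 191, 175 and 188 CPM in rapamycin and 219, 224 and 219 CPM in ethanol. It rose by 0.34 with the Crebl2 siRNA in ethanol (SE 0.04, edgeR adjusted p = 1.7e-05) and fell with rapamycin by 0.50 with the Crebl2 siRNA and by 0.26 with the Luc siRNA. Its siRNA value in rapamycin, 0.10, was not called (edgeR adjusted p = 0.093), though it was under 4 alternative settings (0.13 to 0.16, adjusted p 0.015 to 0.045). Psme1, an interferon-inducible activator with 32.6% of its bases countable, had 10.7, 9.05 and 9.79 CPM with the Crebl2 siRNA and rapamycin and 10.0, 8.85 and 9.56 CPM with the Crebl2 siRNA and ethanol. Psme1 with the Luc siRNA had 13.0, 14.4 and 11.9 CPM in rapamycin and 13.7, 12.9 and 11.3 CPM in ethanol. It fell by 0.41 with the Crebl2 siRNA in both media (SE 0.10 each, edgeR adjusted p = 0.0037 in ethanol and 0.0042 in rapamycin), and its rapamycin values of 0.05 and 0.06 were not called.

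Psme2b is a near-identical copy of Psme2 on chromosome 11, so reads of the pair could be split between them. It also lies within the annotated span of Gm12185 and overlaps 9930111J21Rik1 on the same strand, and its values are uncertain. It had 6.91, 7.22 and 7.79 CPM with the Crebl2 siRNA and rapamycin and 3.14, 3.33 and 2.64 CPM with the Crebl2 siRNA and ethanol. Psme2b with the Luc siRNA had 5.66, 4.56 and 5.17 CPM in rapamycin and 2.61, 2.12 and 3.41 CPM in ethanol. Its rapamycin libraries lay above its ethanol libraries under both siRNAs with no overlap, a rise of 1.27 (SE 0.15, edgeR adjusted p = 4.3e-06) with the Crebl2 siRNA and 0.92 (SE 0.15, adjusted p = 0.00016) with the Luc siRNA. With the Luc siRNA it was the 1 member that rose with rapamycin, and with the Crebl2 siRNA the other was Psmg3, at 0.602 CPM on average with 17.0% of its bases countable. That rise of Psmg3, 0.72 (SE 0.26, edgeR adjusted p = 0.036), ended without any of the 3 Crebl2 ethanol libraries or Crebl2 rapamycin replicate 2 or 3 (0.62 to 0.79).

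Ddi2, the protease that cleaves the Nfe2l1 product into its active form, had 51.6, 50.2 and 51.0 CPM with the Crebl2 siRNA and rapamycin and 61.4, 61.3 and 56.8 CPM with the Crebl2 siRNA and ethanol. Ddi2 with the Luc siRNA had 69.4, 66.0 and 70.6 CPM in rapamycin and 63.2, 73.1 and 67.0 CPM in ethanol. The Crebl2 siRNA lowered it by 0.43 in rapamycin (SE 0.06, edgeR adjusted p = 2.7e-05), opposite to most subunits. In ethanol it fell by 0.18 with that siRNA (SE 0.06, edgeR adjusted p = 0.017), a call that ended without Crebl2 ethanol replicate 3 or Luc ethanol replicate 2 (-0.14 to -0.12). Rapamycin lowered Ddi2 by 0.23 under the Crebl2 siRNA (SE 0.06, edgeR adjusted p = 0.003), and its value of 0.02 with the Luc siRNA was not called. The interaction for Ddi2, -0.25, was not called (SE 0.08, edgeR adjusted p = 0.14).

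Psmc3ip, the recombination protein that shares only the symbol, had 11.9, 15.2 and 11.5 CPM with the Crebl2 siRNA and rapamycin and 25.5, 24.3 and 26.2 CPM with the Crebl2 siRNA and ethanol. Psmc3ip with the Luc siRNA had 9.07, 9.93 and 9.29 CPM in rapamycin and 18.8, 18.8 and 19.1 CPM in ethanol. It showed the directions of the subunits at a larger size, with a rise of 0.42 in ethanol and 0.45 in rapamycin with the Crebl2 siRNA and a fall of 0.98 and 1.00 with rapamycin, with the Crebl2 siRNA and the Luc siRNA. Its values are uncertain too, with 70.2% of its bases free of listed transcripts on both strands.

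Calls near the threshold depended on single libraries. Of the 29 members that rose with the Crebl2 siRNA in ethanol, 23 were called in every fit that left out 1 of the 12 libraries, and of the 24 in rapamycin 21 were. Of those that fell with rapamycin, 28 of 34 with the Crebl2 siRNA and 28 of 33 with the Luc siRNA were called in every such fit. Members outside the naming rule whose call ended without 1 library were Psma1, Psmb1, Psmb4, Psmb5, Psmb10, Psmc4, Psmd11, Psmd13, Psme4, Psmg1, Psmg3 and Psmg4. For Psma1 (25.9% countable), Crebl2 ethanol replicate 2 had 17.1 CPM, against 8.75 and 8.70 CPM in the other 2 libraries of its group, and its rapamycin values of -0.85 with the Crebl2 siRNA and -0.76 with the Luc siRNA lost their calls without single libraries at -0.74 to -0.46 and -0.78 to -0.53. For Psmd13 (30.5% countable), Crebl2 rapamycin replicate 3 had 9.88 CPM, against 4.57 and 6.12 CPM in its group, and its siRNA value of 0.55 in rapamycin lost its call without any of 8 libraries, at 0.23 to 0.56.

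Genes that work with the proteasome were read from lists of their own. Of 14 tested receptors, deubiquitinases and inhibitors bound to it, 5 rose and 1 fell with the Crebl2 siRNA in ethanol, and 3 rose and 1 fell in rapamycin. Among all tested genes 21.4% rose and 17% fell in ethanol, and 16.3% rose and 16.8% fell in rapamycin. The 3 of 14 that rose in rapamycin are thus near the background. With rapamycin 7 fell and 0 rose under the Crebl2 siRNA, and 5 fell and 1 rose under the Luc siRNA. Of all tested genes, 25.6% fell and 19.7% rose under the Crebl2 siRNA, and 21.6% fell and 19.5% rose under the Luc siRNA. Rad23b, a shuttle that carries ubiquitin-tagged proteins to the cap, rose by 0.32 in ethanol and 0.18 in rapamycin with the Crebl2 siRNA and fell by 0.46 and 0.32 with rapamycin, with the Crebl2 siRNA and the Luc siRNA. Ubqln4, another shuttle, rose by 0.43 in ethanol and 0.37 in rapamycin with the Crebl2 siRNA, while its relative Ubqln2 fell by 0.27 and 0.52. Txnl1, a thioredoxin bound to the cap, fell by 0.34 with rapamycin and the Crebl2 siRNA.

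Of 13 tested genes of Nfe2l1 processing and its partners, 3 rose and 0 fell with the Crebl2 siRNA in ethanol, 1 rose and 1 fell in rapamycin, 3 rose and 4 fell with rapamycin under the Crebl2 siRNA, and 2 rose and 3 fell under the Luc siRNA. The 3 of 13 that rose in ethanol are a share near the 21.4% of all tested genes, and the 1 of 13 in rapamycin is below the 16.3%, so the list as a whole shows no more than the background there. With rapamycin, 25.6% of all tested genes fell and 19.7% rose under the Crebl2 siRNA. Under the Luc siRNA 21.6% fell and 19.5% rose. The rapamycin counts of the list are near these shares. Vcp, the segregase that pulls the Nfe2l1 product out of the endoplasmic reticulum, fell by 0.45 and 0.33 with rapamycin, with the Crebl2 siRNA and the Luc siRNA. Maff, a small Maf partner with 19.7% of its bases countable, rose by 0.97 and 0.93 in the same comparisons. Mafg, another small Maf gene, rose by 0.17 and 0.15 with the Crebl2 siRNA in ethanol and rapamycin, where Nfe2l2, the paralog known for oxidative stress, fell by 0.15 in rapamycin. Hcfc1, a host cell factor, had 1.76% of its bases countable and is not read further. Of 5 tested ubiquitin and activating enzyme genes, Ubb, a polyubiquitin gene, rose by 0.42 and 0.27 with rapamycin, with the Crebl2 siRNA and the Luc siRNA, opposite to most subunits. Uba6, an activating enzyme with 49.2% of its bases countable, rose by 0.64 and 0.42 with the Crebl2 siRNA in ethanol and rapamycin.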

How the data were processed

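The values are read counts per Ensembl transcript, whole numbers with no normalization, as the authors deposited them for 12 libraries of total RNA prepared with a stranded kit, per the labels' protocols. Trim Galore, TopHat and HTSeq and the builds mm9 and GRCm38 are named in the submitters' processing notes. Their versions and settings, the annotation and the strand setting are not given in the sources used here. Of 58611 transcripts, 99.41% matched GENCODE M21 (GRCm38), which gave names and coordinates, and counts were summed per gene.

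Low genes were removed with the filter of edgeR 4.0.16 at a minimum count of 10 (R 4.3.3). With TMM scaling, 1 mean per group and all 12 libraries together, contrasts were tested by quasi-likelihood. A gene is called where its Benjamini-Hochberg adjusted p, taken over 13247 genes, is under 0.05, and each SE is the size of the log2 value over the root of its F statistic. Alternatives were RLE scaling, DESeq2 1.42.0, other filters and gene sets, a replicate block, the compared groups alone, single transcripts and leaving out each library.

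Members and lists were chosen with earlier results of these data known. Values per library are given for Pomp, Nfe2l1, Ddi2 and the 2 members of smallest p in each role and pairwise comparison, and for others named as chosen after their values were seen. In other lists the 2 genes of smallest p per comparison are named. Promoter windows and sequences are from RefSeq (GRCm38.p6). Low counts limit the precision of members of a few CPM.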

Additional observations from a re-analysis of the deposited data

Results flagged for a closer look

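The response of Psmd1, a scaffold subunit of the 19S cap, to rapamycin differed between the siRNAs by the test of the difference itself. Its interaction was -0.29 on the log2 scale (SE 0.06, edgeR adjusted p = 0.024, 3 libraries per group), which is a fall of 0.54 with rapamycin under the Crebl2 siRNA and of 0.24 under the Luc siRNA. Leaving out 1 library ended the call for 8 of the 12 libraries (values of -0.29 to -0.22, adjusted p 0.05 to 0.24), each of them named beside the result above. The cause of the difference was not tested.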

How the results depend on the processing

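Over all settings, 0 of 2550 recomputed values of called members changed sign. Counts of members called held within 1.5 times except small ones. With only genes of at least 90% countable bases, 1 member was lower with the Crebl2 siRNA in ethanol (3 in the reported fit) and 0 in rapamycin (2), and 1 was higher with rapamycin and the Crebl2 siRNA (2), fewer members being tested. The replicate block gave 1 for that last count. For the interaction, where 1 member was lower, the count was 0 with no count filter, 0 with the replicate block, 0 with transcripts one by one and 3 with DESeq2; the cause was not tested. Leaving out each library in turn gave 24 to 27 members higher and 1 to 3 lower with the Crebl2 siRNA in ethanol, and 21 to 28 higher and 2 lower in rapamycin. It gave 1 to 3 higher and 29 to 34 lower for rapamycin with the Crebl2 siRNA, 1 higher and 30 to 34 lower with the Luc siRNA, and 0 to 1 lower in the interaction. Same-numbered libraries did not deviate together (18 pairs, correlations from -0.292 to 0.124, 2 of them over 0.1), so the labels' numbers were not taken as pairs; with the replicate block 26 members were higher in ethanol and 20 in rapamycin with the Crebl2 siRNA, and 34 and 31 were lower with rapamycin. In rapamycin, RLE scaling moved the split of all genes called with the Crebl2 siRNA to 2486 higher and 1939 lower, from 2157 and 2228 with TMM, and 27 members were then higher. Depth limits the members of a few CPM, and the countable share limits 18 members whatever the depth.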

Other observations

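Another pair of complexes, read from lists of their own, gives a scale for the proteasome values. All 8 genes of the CCT chaperonin, which folds actin and tubulin, were tested. With the Crebl2 siRNA 6 rose and 0 fell in each medium, with a median log2 fold change of 0.37 in ethanol and in rapamycin. Among all tested genes 21.4% rose in ethanol and 16.3% in rapamycin. Cct6a rose by 0.52 and 0.40 and Cct2 by 0.43 and 0.45 with the Crebl2 siRNA in ethanol and rapamycin. With rapamycin the CCT genes split: 3 fell and 2 rose under the Crebl2 siRNA, and 4 fell and 2 rose under the Luc siRNA. Of all tested genes, 25.6% fell and 19.7% rose under the Crebl2 siRNA, and 21.6% fell and 19.5% rose under the Luc siRNA. Cct6a fell by 0.56 and 0.44, while Cct4 (34.2% countable) rose by 0.32 and 0.31, with the Crebl2 siRNA and the Luc siRNA.

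The COP9 signalosome, a complex related to the lid of the 19S cap that removes Nedd8 from cullins, moved less with the siRNA. Of its 10 tested genes, 3 rose and 0 fell with the Crebl2 siRNA in ethanol (median 0.05) and 2 rose and 0 fell in rapamycin (median 0.06). Among all tested genes 21.4% rose in ethanol and 16.3% in rapamycin, so the 2 of 10 are near the background. Rapamycin lowered 5 and raised 0 under each siRNA, with medians of -0.28 with the Crebl2 siRNA and -0.22 with the Luc siRNA. Of all tested genes, 25.6% fell with rapamycin under the Crebl2 siRNA and 21.6% under the Luc siRNA. Cops3 rose by 0.26 and 0.16 with the Crebl2 siRNA in ethanol and rapamycin and fell by 0.48 and 0.38 with rapamycin, with the Crebl2 siRNA and the Luc siRNA. Cops5, the catalytic subunit and a relative of Psmd14, fell by 0.22 and 0.29 in the same 2 rapamycin comparisons. Cops8 fell by 0.33 and 0.21. Whether these complexes differ from the proteasome was not tested.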
